A study of Homo sapiens with 6 samples.

Results

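Histone cluster 1 on chromosome 6 was described through the peak intervals that lie in its 2 hg19 stretches, chr6:26000000-26300000 (300 kb) and chr6:27050000-27900000 (850 kb). The stretch between them, chr6:26300000-27050000 (750 kb), served for comparison. Distinct intervals of each list that overlapped a stretch by at least 1 bp were taken, whatever their strength. They numbered 307 of the 271093 intervals of the 4 lists, and a further 134 lay in the stretch between. No interval crossed a border of a stretch.

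The lists come from chromatin immunoprecipitation sequencing (ChIP-seq) in NCI-H526, an established small cell lung cancer line, grown in RPMI with serum. LSD1 (KDM1A), a histone demethylase, was precipitated from cells given the solvent DMSO and from cells given an LSD1 inhibitor, labelled GSK552. The treatment text, which stands with every sample, names 1 uM GSK2879552 for 24 hours and was read as the treatment of the GSK552 samples. H3K4me2 and H3K4me1, histone H3 carrying a pair of methyl groups or a single one on lysine 4, were mapped in DMSO cells, and the marks with inhibitor were not analysed here. Each group had 1 library, so no difference below has a replicate check and no p-value is given. The 95% intervals cover counting error only, and neighbouring intervals are not independent. The inputs had no peak list among the files used, and the depth of each library is not stated in the sources used here.

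Histone genes of the main, replication-dependent kind are transcribed in S phase, when new DNA must be packed into nucleosomes, and are gathered in dense clusters with many copies of each type. LSD1 removes methyl groups from mono- and dimethylated lysine 4 of H3. H3K4me2 is found around active promoters and at enhancers, and H3K4me1 is typical of enhancers and of the flanks of active promoters.

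In the RefSeq gene table of GRCh38.p14, used here for names and gene order only, the cluster from H1-1 to H2BC17 holds 53 protein-coding histone genes. They are 6 genes of the linker histone H1 and, for the core of the nucleosome, 11 of H2A, 14 of H2B, 10 of H3 and 12 of H4. The first block, H1-1 to H4C8, has 32 of them, with the iron-regulation gene HFE as the only other coding gene. Then come 47 transfer RNA genes and 9 other coding genes, among them BTN3A2, BTN2A1 and BTN1A1 of the butyrophilin family, the nucleosome-binding gene HMGN4, ABT1 and ZNF322. A block of 5 histone genes, H2BC11 to H2AC12, follows, then 51 transfer RNA genes with the coding genes PRSS16, POM121L2, ZNF391, ZNF184 and LOC105375107, and finally 16 histone genes, H2BC13 to H2BC17. Genes of other kinds thus stand between the later histone blocks as well. No gene was put at a peak or in an hg19 stretch, since the table has another build than the peaks.

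Promoter sequences show what the histone genes have in common. Of the 53 genes, 48 had a promoter in the RefSeq table, and the 250 bases before each start were searched on both strands. CCAAT (or ATTGG), the box read by NF-Y, was present in 41 of 48 (85.4%), against 32.0% of all 35116 promoters. TATAAA (or TTTATA), a form of the TATA box, was present in 31 of 48 (64.6%), against 10.7% of all promoters. The genes of H1, H2A, H2B and H3 all held CCAAT (6 of 6, 10 of 10, 14 of 14 and 8 of 8), and those of H4 held it in 3 of 10. GCGGGAA (or TTCCCGC) was in 7 of 48 (14.6%; 5.52% of all promoters), all 7 of them among the 10 H4 promoters. TTTGGCGC (or GCGCCAAA) was in 0 of 48 and in 0.550% of all promoters. No motif searched contains another. Where an H2A and an H2B gene with promoter entries were neighbours, 8 of 11 such pairs were transcribed away from each other. One promoter of each class is printed to show the layout, the first of its class in gene order. Each line gives the 120 bases before the start, 5′ to 3′ on the gene's strand, with CCAAT or TATAAA on either strand in capitals, and the positions are those of GRCh38.p14, not of the hg19 peaks. They are chr6:26017788-26017907 (minus strand) for H1-1, chr6:26033619-26033738 (minus) for H2AC4, chr6:26043714-26043833 (minus) for H2BC3, chr6:26020331-26020450 (plus) for H3C1 and chr6:26027284-26027403 (minus) for H4C2.
H1-1: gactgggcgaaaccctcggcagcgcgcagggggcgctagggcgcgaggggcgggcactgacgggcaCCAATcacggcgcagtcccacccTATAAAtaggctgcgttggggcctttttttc
H2AC4: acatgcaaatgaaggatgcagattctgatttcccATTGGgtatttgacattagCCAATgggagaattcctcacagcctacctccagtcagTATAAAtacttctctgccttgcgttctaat
H2BC3: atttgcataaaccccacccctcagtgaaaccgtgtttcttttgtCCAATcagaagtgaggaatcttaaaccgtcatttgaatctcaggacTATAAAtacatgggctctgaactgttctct
H3C1: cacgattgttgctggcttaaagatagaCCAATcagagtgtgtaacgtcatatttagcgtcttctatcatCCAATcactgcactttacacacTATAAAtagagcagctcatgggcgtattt
H4C2: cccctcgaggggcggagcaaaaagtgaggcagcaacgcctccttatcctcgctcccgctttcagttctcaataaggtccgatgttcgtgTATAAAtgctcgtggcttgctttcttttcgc
In 4 of the 5 lines a CCAAT box lies upstream of TATAAA, and the H4C2 line has TATAAA alone.

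The histone stretches were crowded with LSD1 peaks and H3K4me2, and pooled they had no such excess of H3K4me1. LSD1 with DMSO gave 63 peaks there (20 in the first stretch, 43 in the second), or 54.8 per Mb against 14.6 over the genome. LSD1 with inhibitor gave 78 (25 and 53), or 67.8 per Mb against 16.0. H3K4me2 gave 134 intervals (41 and 93), or 116.5 per Mb against 26.4, and H3K4me1 gave 32 (19 and 13), or 27.8 per Mb against 30.6. Relative to the rest of the genome, the density was 3.75-fold (95% exact interval 2.88 to 4.80) for LSD1 with DMSO, 4.24-fold (3.35 to 5.29) with inhibitor and 4.42-fold (3.71 to 5.24) for H3K4me2. For H3K4me1 the ratio was 0.909 (0.622 to 1.28). H3K4me2 covered 10.3% of the bases of the histone stretches and 1.94% of the genome, taken as 3093 Mb up to the last peak of each chromosome.

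Set against the stretch between as a whole, both LSD1 lists were denser in the pooled histone stretches, and for both marks the interval included equal density. LSD1 with DMSO was 1.79-fold denser in the histone stretches (1.09 to 3.02; 30.7 peaks per Mb between) and LSD1 with inhibitor 2.21-fold (1.37 to 3.69; 30.7 per Mb between). In the second stretch alone, the DMSO ratio was 1.65 (0.972 to 2.87), which includes equal density. Densities of the stretch between average a crowded part and a sparse part. In each LSD1 list, 19 of its 23 peaks lay in the 300 kb next to the first histone stretch. So did 50 of its 67 H3K4me2 intervals. The first histone stretch, also 300 kb long, held 20 LSD1 peaks with DMSO, 25 with inhibitor and 41 H3K4me2 intervals. Those 300 kb of the stretch between thus held nearly as many DMSO peaks as the first stretch, and more H3K4me2 intervals. Ratios to those 300 kb alone were not computed, so the greater LSD1 density holds only against the stretch between as a whole. The H3K4me2 ratio was 1.30 (0.966 to 1.78; 89.3 per Mb between), and the stretch between was itself 3.39-fold (2.63 to 4.31) above the rest of the genome. The H3K4me2 call depends on the borders and on peak strength: the ratio was 1.39 (1.02 to 1.89) with stretches narrowed by 25 kb, 1.53 (1.02 to 2.36) with the 50% of intervals of highest score and 1.53 (1.01 to 2.29) for the first stretch alone, none of which includes 1. The H3K4me1 ratio was 0.994 (0.556 to 1.81), which pools unlike stretches. It was 2.26 (1.15 to 4.42) for the first stretch alone and 0.546 (0.251 to 1.14) for the second. Against windows of the same length laid end to end over the genome, the first stretch held more LSD1 peaks than 98.5% (DMSO) and 99.3% (inhibitor) of 10101 windows and more H3K4me2 intervals than 99.0%. The second stretch stood above 97.9%, 99.0% and 99.1% of 3560 windows for the same lists. For H3K4me1 the first stretch stood above 84.1% of windows and the second above 35.6%. The stretch between stood above 88.4%, 85.3% and 97.2% of 4035 windows.

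**Figure D1:**
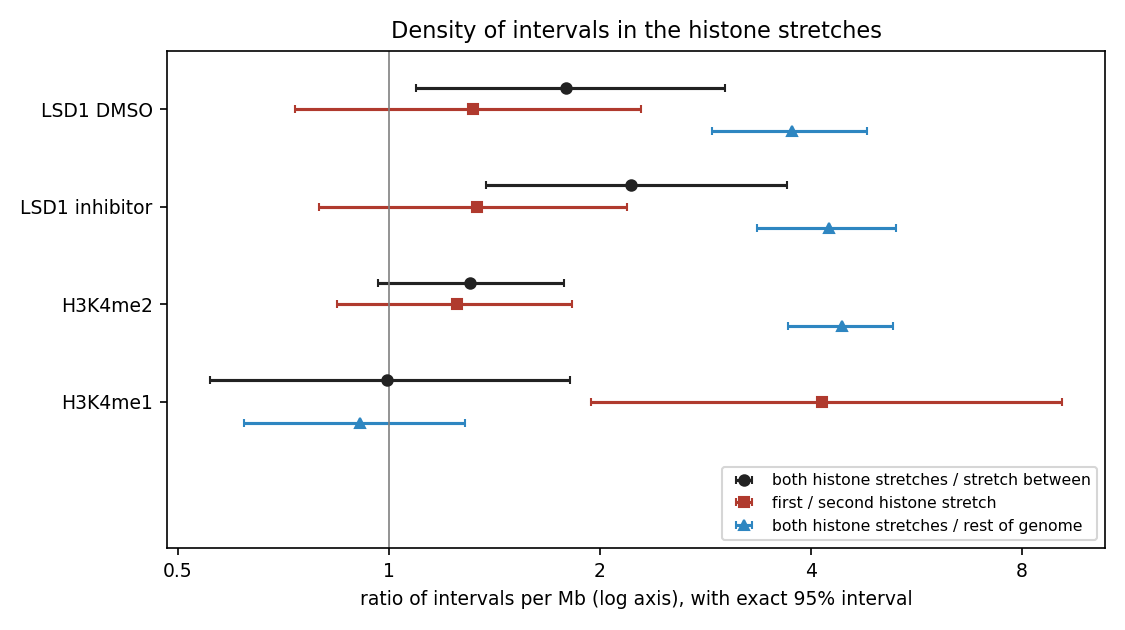
Ratio of intervals per Mb (log axis) with exact 95% intervals for 4 lists, as both histone stretches over the stretch between (circles), first over second histone stretch (squares) and both histone stretches over the rest of the genome (triangles). The triangles of both LSD1 lists and H3K4me2 lie between 3.75 and 4.42, and the H3K4me1 square lies at 4.14 while its other points lie near 1.

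H3K4me1 set the histone stretches apart from each other. It had 63.3 intervals per Mb in the first and 15.3 in the second, a ratio of 4.14 (1.94 to 9.12). In the second stretch, 12 of 17 bins of 50 kb had no H3K4me1 interval, whereas both LSD1 lists and H3K4me2 had at least 1 interval in every bin of both stretches. The 600 kb in the middle of the second stretch held 4 H3K4me1 intervals, or 6.67 per Mb, and the last 150 kb held 6, or 40 per Mb. For the other lists the first stretch was 1.32-fold (0.734 to 2.29; LSD1 with DMSO), 1.34-fold (0.796 to 2.19; inhibitor) and 1.25-fold (0.843 to 1.82; H3K4me2) as dense as the second, and all of these intervals include 1. Within the second stretch, H3K4me2 was densest in the last 150 kb, at 173 per Mb against 93.3 in the middle 600 kb, a ratio of 1.86 (1.12 to 3.01). In the stretch between, each LSD1 list was empty in 7 of 15 bins, and 19 of its 23 peaks in each list lay in the 300 kb next to the first histone stretch.

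**Figure D2:**
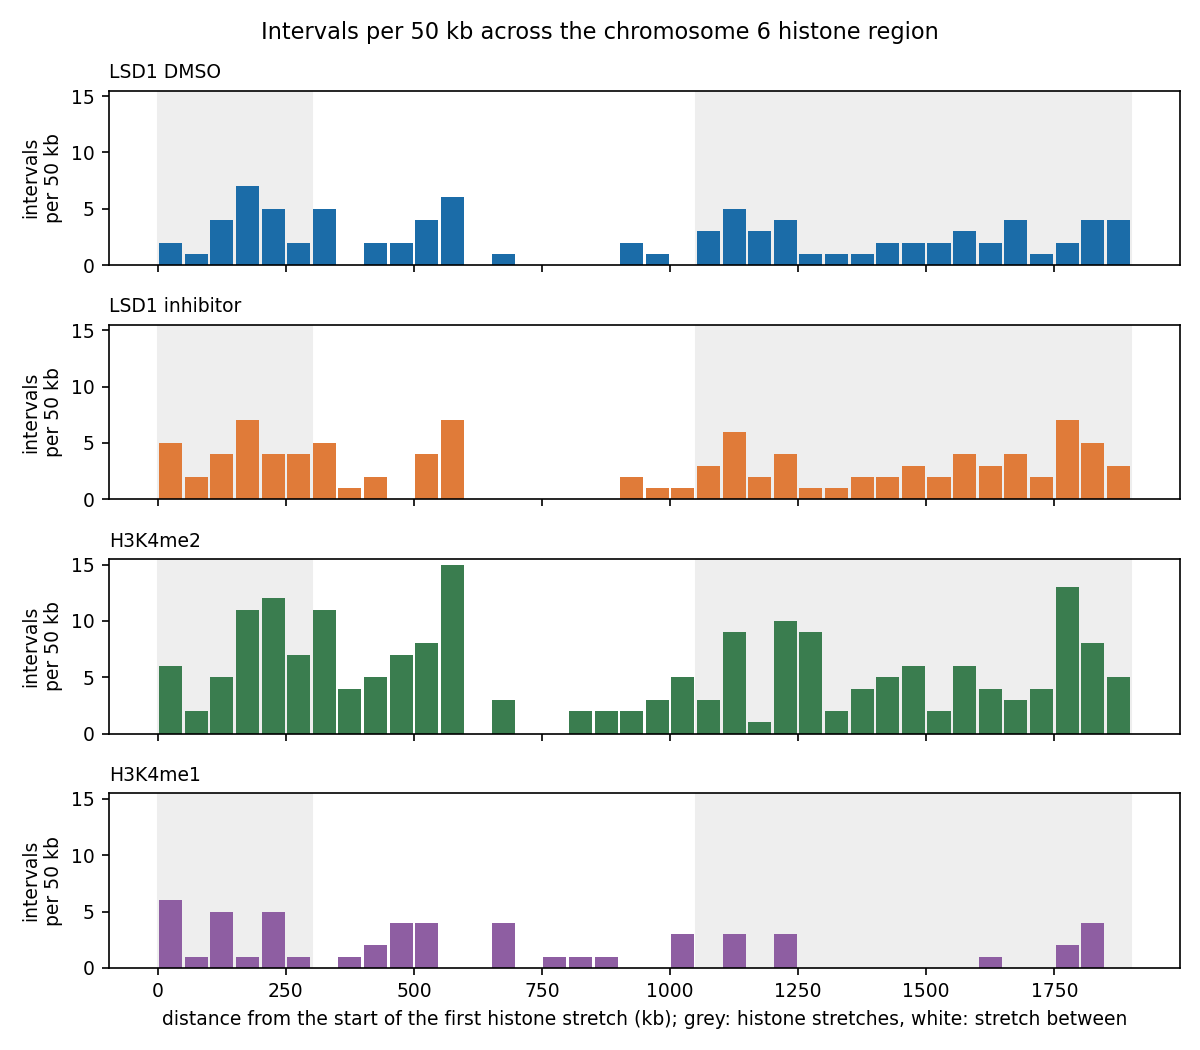
Intervals per bin of 50 kb (y axis) against distance from the start of the first histone stretch (x axis, kb), 1 panel per list, with the histone stretches in grey and the stretch between in white. The H3K4me1 panel is empty in 12 of 17 bins of the second histone stretch, while the other panels have bars in all bins of both grey areas.

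The H3K4me2 intervals of the histone stretches mostly stood without H3K4me1. Of 134, 112 had no H3K4me1 overlap (83.6%, Wilson interval 76.4% to 88.9%), against 36.9% of all 81619 intervals of the list. The difference from the rest of the genome was 46.8 percentage points (39.6 to 52.2). The stretch between had nearly the same share, 55 of 67 (82.1%; difference 1.49 points, -8.79 to 13.6), and no difference between the histone stretches and the stretch between was shown. The first histone stretch had 70.7% and the second 89.2%, a difference of -18.5 points (-34.5 to -4.42), in the direction of the H3K4me1 densities above. The reverse view was less extreme: 21 of 32 H3K4me1 intervals overlapped H3K4me2 (65.6%, 48.3% to 79.6%; 47.4% of the whole list). The 2 widest H3K4me1 members were chr6:27223101-27224464 (1364 bp) and chr6:27128410-27129754 (1345 bp), so 2 of 32 reached 1 kb (6.25%; 18.3% of the list). LSD1 overlapped 6 of 32 H3K4me1 members with DMSO (18.8%; 23.7% of the list) and 6 with inhibitor (18.8%; 23.8% of the list). All 6 with inhibitor lay in the second stretch, 6 of 13 against 0 of 19 in the first, a difference, first minus second, of -46.2 points (-70.9 to -17.7).

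By their medians, H3K4me2 members were also wide and strong relative to their list. Their median width was 711.5 bp against 411 bp over the list, and 49 of 134 were at least 1 kb wide (36.6%, 28.9% to 45.0%; 24.2% of the whole list). In the stretch between, 15 of 67 were (22.4%), 14.2 points fewer (0.504 to 26.0). The median −log10 q, the caller's false discovery rate on a log scale, was 11.3 in the histone stretches, 8.34 between and 8.32 over the list. Several summits were marked in 72 of 134 members (53.7%; 37.7% of the whole list) and in 21 of 67 intervals of the stretch between (31.3%). The very strongest intervals were not frequent here. The top decile of the list by score held 7 of 134 members (5.22%; 10.1% of the whole list) and 1 of 67 intervals of the stretch between (1.49%).

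The 2 strongest H3K4me2 members lay in the last 150 kb of the second stretch. The interval chr6:27759167-27761856 (2690 bp) had a fold enrichment of 21.5 over the caller's background and a −log10 q of 56.6, rank 1386 of the list. It was followed by chr6:27861251-27863603 (fold 20.1, −log10 q 45.7). The third, chr6:27438816-27440888 (fold 15.7, −log10 q 39.9), lay in the middle of the second stretch. All 3 overlapped LSD1 peaks of both lists and no H3K4me1. The widest member, chr6:26195503-26199097 (3595 bp, fold 14.8), lay in the first stretch and also overlapped both LSD1 lists and no H3K4me1. Among the 10 highest scores, chr6:27155417-27156735 (fold 13.1, −log10 q 33.9) had no LSD1 peak, with the nearest one 8499 bp away with DMSO and 8833 bp away with inhibitor. In the same group of 10, chr6:27777906-27779720 and chr6:27218141-27219933 had LSD1 with inhibitor only.

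By an overlap of 1 bp, LSD1 peaks of the histone stretches lay mostly on H3K4me2 and rarely on H3K4me1. With DMSO, 45 of 63 overlapped H3K4me2 (71.4%, 59.3% to 81.1%; 50.4% of the whole list) and 5 overlapped H3K4me1 (7.94%, 3.44% to 17.3%; 41.5% of the list). With inhibitor, 63 of 78 overlapped H3K4me2 (80.8%, 70.7% to 88.0%; 52.9% of the list) and 5 overlapped H3K4me1 (6.41%, 2.77% to 14.1%; 39.5% of the list). All 5 DMSO and all 5 inhibitor peaks on H3K4me1 lay on H3K4me2 too, so both marks met at 7.94% and 6.41% of the peaks (31.7% and 30% of the lists). With a reciprocal overlap of 50%, H3K4me2 shares fell to 23.8% with DMSO and 16.7% with inhibitor. H3K4me2 without H3K4me1 lay under 40 of 63 DMSO peaks (63.5%; 18.7% of the list) and 58 of 78 inhibitor peaks (74.4%; 22.9% of the list). That was 44.9 points (32.5 to 55.7) and 51.6 points (40.9 to 60.0) above the rest of the genome. No LSD1 member lay on H3K4me1 without H3K4me2: 0 of 63 with DMSO (up to 5.75%; 9.84% of the list) and 0 of 78 with inhibitor (up to 4.69%; 9.49% of the list). Neither mark was found under 18 of 63 (28.6%; 39.8% of the list) and 15 of 78 (19.2%; 37.6% of the list). None of these shares separated the histone stretches from the stretch between, where 17 of 23 DMSO peaks and 18 of 23 inhibitor peaks overlapped H3K4me2. The differences were -2.48 points (-20.7 to 20.1) and 2.51 points (-13.2 to 23.9).

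**Figure D3:**
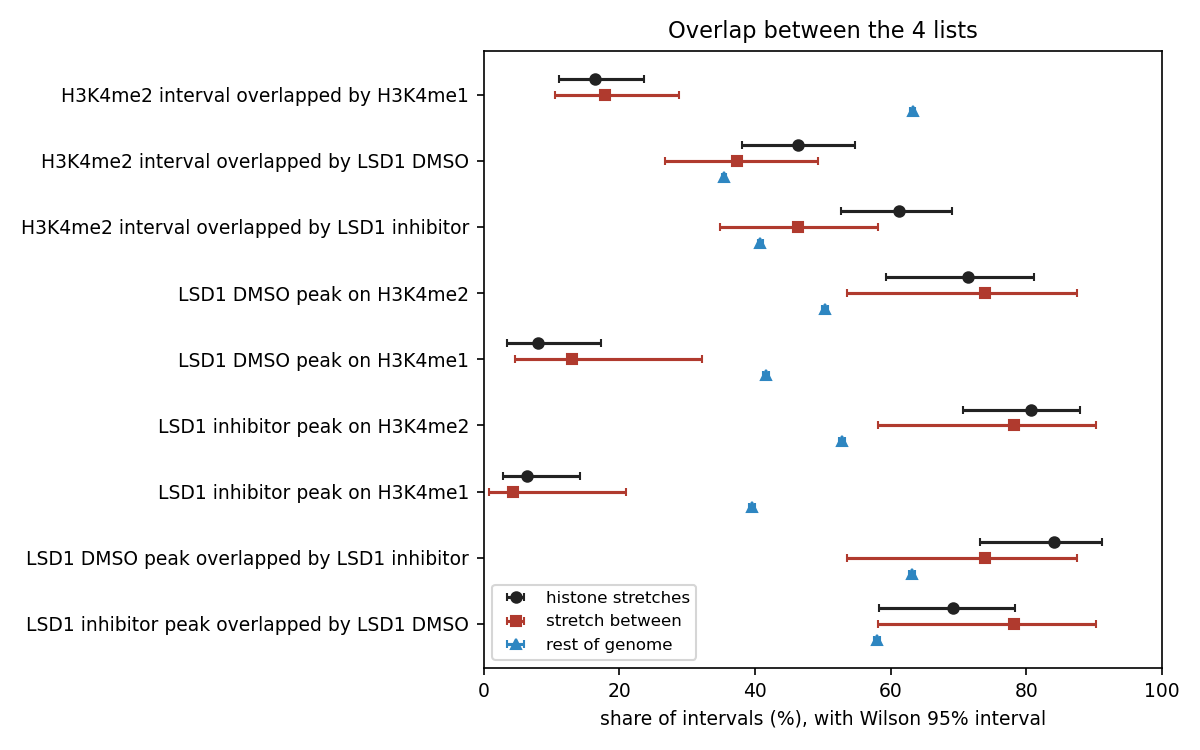
Share of intervals (%, with Wilson 95% intervals) that overlap another list, for the histone stretches (circles), the stretch between (squares) and the rest of the genome (triangles). In the H3K4me1 rows of the LSD1 and H3K4me2 lists, circles and squares lie under 20% and triangles between 39.6% and 63.3%.

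Seen from H3K4me2, the inhibitor list covered more members than the DMSO list. LSD1 overlapped 62 of 134 H3K4me2 members with DMSO (46.3%, 38.0% to 54.7%; 35.4% of the whole list) and 82 with inhibitor (61.2%, 52.7% to 69.0%; 40.8% of the list). The paired difference was 14.9 points (7.83 to 21.7). It was 17.1 points (5.48 to 27.6) in the first stretch, 14.0 (5.17 to 22.3) in the second, 8.96 (0.000437 to 17.6) in the stretch between and 5.38 (5.05 to 5.71) over the rest of the genome. Among H3K4me2 without H3K4me1 the difference was 14.3 points (6.44 to 21.7) in the histone stretches and 9.80 (9.25 to 10.3) in the rest of the genome, so its interval there includes the value of the rest. LSD1 in both lists was found at 59 of 134 (44.0%; 26.5% of the list), with inhibitor only at 23 (17.2%; 14.3%), with DMSO only at 3 (2.24%; 8.95%) and in neither list at 49 (36.6%; 50.2%). When overlap meant that each interval covered 50% of the other, or that a centre lay inside the other interval, the paired difference turned to -1.49 points. Both intervals included 0 (-7.71 to 4.63 and -9.23 to 6.25), so no difference was shown under these rules. The inhibitor list was also the longer one, with 49597 against 45188 peaks, and the part of list length, peak width and library depth in these differences was not tested, except that cutting the LSD1 lists to equal length left the difference within its interval.

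H3K4me2 members with and without LSD1 differed in size. Those with LSD1 in both lists had a median width of 1079 bp and a median −log10 q of 18.6, those with inhibitor only 920 bp and 16.4, and those in neither list 242 bp and 6.07. The 3 members with DMSO only ran from 172 to 1538 bp. A wide interval has more room for an overlap, and the part of width was not tested. The same order of medians held over the genome, with 879, 610 and 285 bp. In the stretch between it did not hold fully, with 571 bp (both lists), 614.5 bp (inhibitor only, 8 intervals) and 327.5 bp (neither). The 10 widest H3K4me2 members all overlapped LSD1 in both lists.

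**Figure D4:**
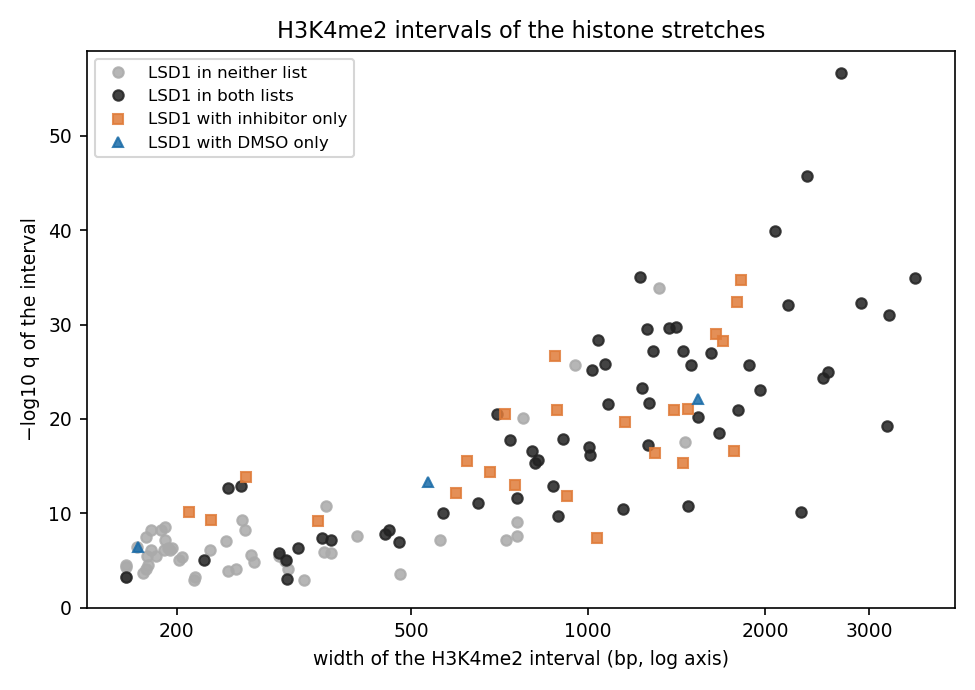
Width (bp, log axis) and −log10 q of the 134 H3K4me2 intervals of the histone stretches, with the mark showing overlap with LSD1 in both lists, with inhibitor only, with DMSO only or in neither. Intervals in neither list (grey) gather at the lower left, with a median width of 242 bp, and those in both lists (black) reach 3595 bp.

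By an overlap of 1 bp, most LSD1 peaks of the histone stretches were called under both conditions. The inhibitor list overlapped 53 of 63 DMSO peaks (84.1%, 73.2% to 91.1%; 63.2% of the whole list), 21.0 points (10.1 to 28.0) above the rest of the genome. The DMSO list overlapped 54 of 78 inhibitor peaks (69.2%, 58.3% to 78.4%; 58.1% of the list), 11.2 points (0.232 to 20.3) above the rest. When each peak had to cover 50% of the other, the shares fell to 46.0% and 37.2%, so most peaks then had no partner. The stretch between had 73.9% and 78.3% by the 1 bp rule, and both differences from it included 0. The 10 peaks called with DMSO alone had a median −log10 q of 1.57 and 3 of them lay on H3K4me2, close to the values of such peaks genome-wide (1.55 and 29.2%). The 24 called with inhibitor alone had a median of 2.76 and 18 lay on H3K4me2, against 2.34 and 40% genome-wide. Of the 54 inhibitor peaks there with a DMSO partner, 45 lay on H3K4me2 (17930 of 28803 genome-wide). In the stretch between, 4 of 5 peaks called with inhibitor alone did. The strongest of those 24, chr6:27740202-27740519 (fold 5.27, −log10 q 6.26), lay 17366 bp from H3K4me2 and 18713 bp from the nearest DMSO peak.

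Most LSD1 peaks shared by the lists ranked higher in the inhibitor list. The score percentile is the share of a list's peaks that score lower, with tied peaks given their mean rank. It makes lists of different strength comparable by rank only. The 53 and 54 overlapping peaks formed 55 pairs, and the percentile was higher with inhibitor in 43 of 55 (78.2%; 48.7% of 29329 pairs genome-wide), 29.6 points (17.0 to 38.5) above the rest of the genome. The median percentile was 63.7 with DMSO and 77.3 with inhibitor, with a median change of 9.99 within pairs against -0.563 genome-wide. The fold was higher in 47 of 55 pairs (85.5%; 65.6% of pairs genome-wide), with medians of 3.84 and 4.74. Over all LSD1 peaks, paired or not, the last 150 kb of the second stretch went the other way. Its median percentile was 62.3 with DMSO and 46.6 with inhibitor. The median was higher with inhibitor in the first stretch (53.9 and 71.6). It was also higher in the first 100 kb (66.4 and 79.2) and middle 600 kb (67.3 and 74.0) of the second. In the stretch between, the percentile was higher in 15 of 19 pairs, and the histone stretches differed from it by -0.766 points (-18.5 to 23.2). Ranks from lists of different length cannot show a change in binding.

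**Figure D5:**
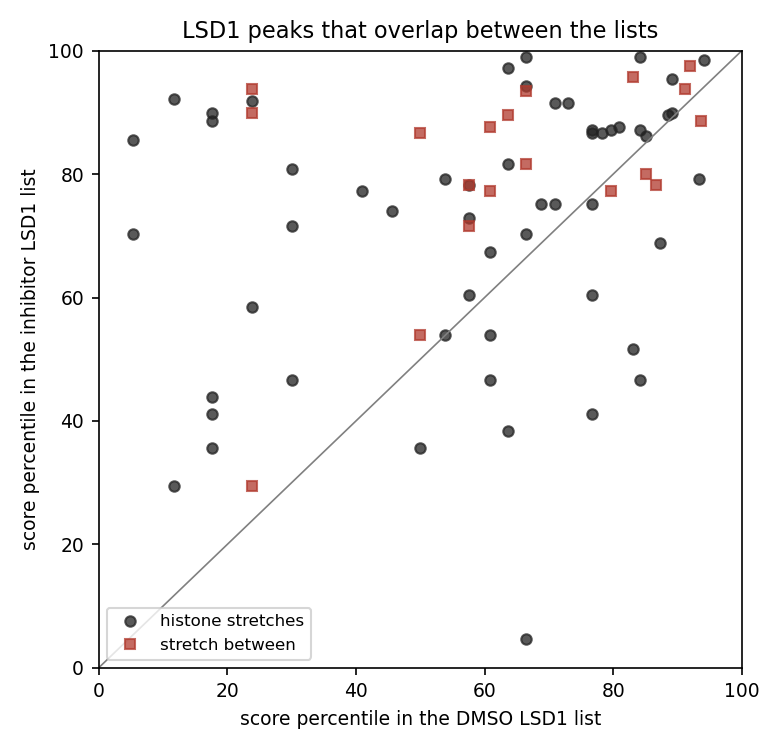
Score percentile in the DMSO LSD1 list (x axis) and in the inhibitor LSD1 list (y axis) of LSD1 peaks that overlap between the lists, for 55 pairs in the histone stretches (circles) and 19 in the stretch between (squares), with the line of equal percentile. Points above the line number 43 of 55 and 15 of 19.

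Named LSD1 peaks show the spread of these pairs. The highest-scoring DMSO member, chr6:27655322-27656236 (fold 4.87, −log10 q 5.55, rank 2576), met the third inhibitor member, chr6:27655056-27656291 (fold 7.62, −log10 q 12.4, rank 754). The second DMSO member, chr6:26189251-26189470 (fold 5.04, −log10 q 5.25), went the other way, with an inhibitor peak of fold 4.32 and −log10 q 4.70. With inhibitor the leading members were chr6:27094880-27095166 (fold 8.32, −log10 q 13.9, rank 507) and chr6:26103912-26104493 (fold 8.35, −log10 q 13.8, rank 521). The DMSO partner of the latter, chr6:26103812-26105328, had a fold of 3.88 and a −log10 q of 2.43. Of the 20 highest-scoring DMSO members, 15 lay on H3K4me2, 1 on H3K4me1 and 18 on an inhibitor peak. Of the 20 highest with inhibitor, 17 lay on H3K4me2, 1 on H3K4me1 and 19 on a DMSO peak. The DMSO and inhibitor pair at chr6:26064885-26065591 and chr6:26064925-26065258 was on neither mark, and its nearest H3K4me2 interval was 7389 bp and 7429 bp away.

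H3K4me2 intervals up to 2 kb apart were joined, to describe runs of marked chromatin. The histone stretches held 58 such runs (14 in the first, 44 in the second), with a median width of 1810.5 bp. Runs had a median width of 1458 bp in the stretch between and 1377 bp over the genome. A wider run has more room for an overlap, and the part of width in the shares below was not tested. LSD1 with DMSO overlapped 36 of 58 (62.1%; 52.4% of all runs of the genome) and LSD1 with inhibitor 47 (81.0%; 59.9%). The inhibitor share was 25.5 points (4.85 to 45.4) above that of the stretch between, 15 of 27, and the DMSO share was 10.2 points above it with an interval that includes 0 (-11.4 to 31.4). H3K4me1 overlapped 14 of 58 (24.1%; 71.8% of all runs). In the first stretch, inhibitor LSD1 overlapped 14 of 14 runs and DMSO LSD1 11 of 14. The widest run, chr6:26025630-26033816 (8187 bp), held 5 H3K4me2 intervals, 2 DMSO and 4 inhibitor LSD1 peaks and 6 H3K4me1 intervals. The run chr6:26194066-26202047 (7982 bp) held 5 H3K4me2 intervals and 3 LSD1 peaks of each list, with no H3K4me1. In the second stretch, chr6:27774814-27782269 (7456 bp) joined 8 H3K4me2 intervals and held 0 DMSO and 2 inhibitor LSD1 peaks. The run chr6:27857521-27863603 (6083 bp) held 3 DMSO and 2 inhibitor peaks.

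LSD1 peaks also overlapped, by at least 1 bp, many of the short gaps inside these runs. Whether a peak spanned a whole gap was not tested. There were 76 gaps of up to 2 kb between H3K4me2 members, with a median of 211.5 bp. LSD1 with DMSO overlapped 34 of them (44.7%; 26.8% of such gaps genome-wide) and LSD1 with inhibitor 39 (51.3%; 33.9%). That was 18.0 points (7.29 to 29.1) and 17.5 points (6.43 to 28.4) above the rest of the genome, and the differences from the stretch between, 17.2 points (-1.44 to 33.2) and 11.3 points (-7.63 to 28.8), included 0. Peaks centred inside such a gap were 11 of 63 with DMSO (17.5%; 7.83% of the list) and 13 of 78 with inhibitor (16.7%; 10.9% of the list). The difference from the rest of the genome was 9.65 points (2.22 to 20.8) with DMSO. With inhibitor it was 5.80 points (-0.866 to 15.6), which includes 0. The stretch between had 2 of 23 (8.70%) with DMSO and 6 of 23 (26.1%) with inhibitor. Peaks centred inside an H3K4me2 interval were 33 of 63 (52.4%; 36.4% of the list) and 44 of 78 (56.4%; 36.8% of the list).

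A background implied by each peak's fold and p-value, relative to its list's median, was computed as a check on the DNA copy number of the stretches. In the histone stretches, LSD1 peaks had a median of 1.13 with DMSO and 1.01 with inhibitor (74 of 78 peaks gave a value), H3K4me2 had 0.902 and H3K4me1 0.990. In the stretch between it ran from 0.881 to 0.984. The first and second histone stretches differed for LSD1 with DMSO, at 1.37 and 0.949, while for the other lists each of them lay between 0.902 and 1.04.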

How the data were processed

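Peak lists of 4 of 6 ChIP-seq samples were used, 1 library each. The 2 inputs were not used here. BWA, Picard, MACS2 2.0 and hg19 are named in the submitters' processing notes, while no source used here gives the control, the depth or the handling of duplicates. Per the files' layout, the deposited score is 10 times the −log10 q, the deposited fold is a ratio over the caller's background, and the authors' −log10 p-values and −log10 q-values were used only within a list. The LSD1 lists are broad peaks (smallest −log10 q 1.00 and 1.01) and the histone lists are narrow peaks (2.02 and 2.01), whose rows of 1 interval were merged with the values of the highest-scoring row. The members and lists were chosen with earlier results of these data known, and runs, gaps and pairs were added after the data were seen.

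Overlap meant 1 bp. Shares carry Wilson intervals, differences Newcombe intervals (paired where the same intervals were counted under both conditions) and density ratios exact conditional binomial intervals, all at 95% (Python 3.11.15, scipy 1.17.1). The computations passed 9 of 9 checks on simulated data. Intervals named by position are the 20 highest scores of each LSD1 list, the 10 highest scores and the 10 widest of each histone list and, where values called for it, further ones chosen after they were seen. Alternatives were another overlap rule, stronger peaks, LSD1 lists of equal length and other borders. No protein sequences were used here, and the gene and promoter tables are of GRCh38.p14.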

Additional observations from a re-analysis of the deposited data

How the results depend on the processing

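No paired analysis was possible because no group holds a second library, and the paired differences above pair intervals, not samples. With a reciprocal overlap of 50% and with the centre rule, respectively, the shares became 46.0% and 69.8% (DMSO peaks in the inhibitor list), 37.2% and 56.4% (inhibitor peaks in the DMSO list), 23.8% and 52.4% (DMSO peaks on H3K4me2), 16.7% and 56.4% (inhibitor peaks on H3K4me2), 97.8% and 91.0% (H3K4me2 without H3K4me1), 11.2% and 26.9% (H3K4me2 with DMSO LSD1) and 9.70% and 25.4% (with inhibitor LSD1), and the inhibitor minus DMSO difference reversed to -1.49 points under both. With the 50% of peaks of highest score, H3K4me2 without H3K4me1 was 95%, H3K4me2 with inhibitor LSD1 72.5% and the difference 31.3 points. The same cut kept 10 of the 32 H3K4me1 members, which leaves fewer of them to overlap H3K4me2. With LSD1 −log10 q of at least 2, inhibitor peaks in the DMSO list were 50.7%, H3K4me2 with DMSO LSD1 32.8% and the difference 25.4 points. This cut kept 48.0% of the DMSO list and 75.3% of the inhibitor list. It therefore cannot show whether the difference grows with peak strength. The first stretch alone gave 92% for inhibitor peaks on H3K4me2, 70.7% for H3K4me2 without H3K4me1 (-11.4 points from the stretch between) and an H3K4me1 density ratio of 2.26. The second alone gave 89.2% and a ratio of 0.546. The first stretch with the first 100 kb and last 150 kb of the second gave 94.6%, 83.8% and 89.6% for DMSO peaks in the inhibitor list, DMSO peaks on H3K4me2 and inhibitor peaks on H3K4me2, and a ratio of 1.82. The cause of these shifts was not tested. Stretches narrowed by 25 kb left 13 of 13 results, and LSD1 lists of equal length 9 of 9, within the main value's interval, but with narrowing the interval of the H3K4me2 density ratio no longer included 1 (1.39, 1.02 to 1.89), as with the first stretch and the ends of the second (1.59, 1.13 to 2.23). In the second stretch alone, that of LSD1 with DMSO included 1 (1.65, 0.972 to 2.87). Density ratios have no value under the other overlap rules. Unknown depth limits every comparison between lists.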
